A study of Danio rerio with 6 samples.

Results

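The p53 target and growth arrest genes described here are 9 listed genes (mdm2, ccng1, cdkn1a, gadd45aa, gadd45ba, sesn1, bbc3, baxa and rps27l). They were found in the count table by gene name, and a name that stands without its paralog letter was also accepted. All 9 had a match, which gave 11 genes of the 32520 in the table. The names GADD45A and GADD45B are each carried by 2 genes, and the name tables do not say which paralog is which, so all 4 are kept and told apart by their Ensembl identifiers. No threshold on the counts was used to find them, but the set was drawn up with earlier results of these data known.

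The libraries came from zebrafish embryos of a transgenic line in which sp7, an osteoblast transcription factor gene, drives enhanced green fluorescent protein (GFP). In the exposed group, 400 embryos of this line were kept with 200 nM bisphenol A (BPA), a plastic monomer with estrogenic activity, from 24 hours to 4 days after fertilization. The control group held 400 embryos of the same line at the same age, without BPA; the labels do not give the vehicle content of its medium. The embryos were dissociated with collagenase and the cells sorted, and 3 exposed and 3 control libraries of the cells labelled sp7-positive were sequenced. Whether the libraries of a group came from separate pools of embryos is not stated, so p-values measure only the differences among these libraries, which may be technical. The comparison of the groups addresses how the RNA of exposed libraries differed from that of control libraries, in a series whose title names bone loss. Whether a difference came from BPA or from the embryo pools, dissociation or sorting of each group was not tested.

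p53 is a transcription factor that accumulates after DNA damage and other stresses, and its targets halt the cell cycle, repair the damage or start apoptosis. One target, mdm2, encodes the ubiquitin ligase that marks p53 for degradation, which closes a negative feedback loop. Most of the genes below are read as p53 targets, but several also answer to other signals: GADD45 genes respond to NF-kappaB and growth factors, and CDKN1A to hormones and differentiation factors.

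The exposed libraries held 30748435, 42207786 and 42863847 counts and the control libraries 37716680, 43403568 and 32173615. Levels are given as CPM, counts scaled to a common library size, and are compared within a gene and not between genes, since gene lengths were not used. Every member was well above the detection limit, with between 102 and 10830 counts in a library, and all 11 passed the filter on low counts. The sp7 gene itself averaged 8.49 CPM in exposed and 6.87 CPM in control libraries and did not pass the test. Of the 18 osteoblast marker genes matched, the osteocalcin gene bglap was at 0 in all libraries and the others had counts. Among the 17 tested, 5 were higher in exposed libraries, 5 lower and 7 did not pass. Summed osteoblast markers stood at 11881 to 12008 CPM in exposed and 9934 to 10178 CPM in control libraries. Their median log2 fold change was -0.03, so the higher sum was not a rise shared by the list. Summed epidermal markers stood at 27687 to 28386 CPM in exposed and 16036 to 16536 CPM in control libraries, so RNA of other tissues was present as well.

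The members did not move in one direction. Of the 11 genes, 3 were higher in the exposed libraries (CCNG1, 1 GADD45A gene and 1 GADD45B gene), 3 were lower (cdkn1a, rps27l and the other GADD45A gene), and 5 did not pass (mdm2, SESN1, bbc3, BAX and the other GADD45B gene). The test was edgeR's quasi-likelihood test with Benjamini-Hochberg adjustment over all genes, at an adjusted p of 0.05. A share of 54.5% of the members was called, where 38.8% of all 21194 genes tested were called, 20.1% as higher and 18.7% as lower. Among genes with a mean of at least 3 CPM, a level that all members reach, 49.7% were called, so the members' share lies near that background. Their median log2 fold change was -0.08, against -0.003 for all genes tested. Only cdkn1a changed at least 2-fold among the members; 3.5% of all genes tested were at least 2-fold lower and called, and 5.59% at least 2-fold higher. The 3 exposed values lay all above or all below every control value for 63.6% of the members and for 48.4% of all genes tested. The latter share includes genes below 3 CPM, and it was not computed for genes at the level of the members.

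**Figure D1:**
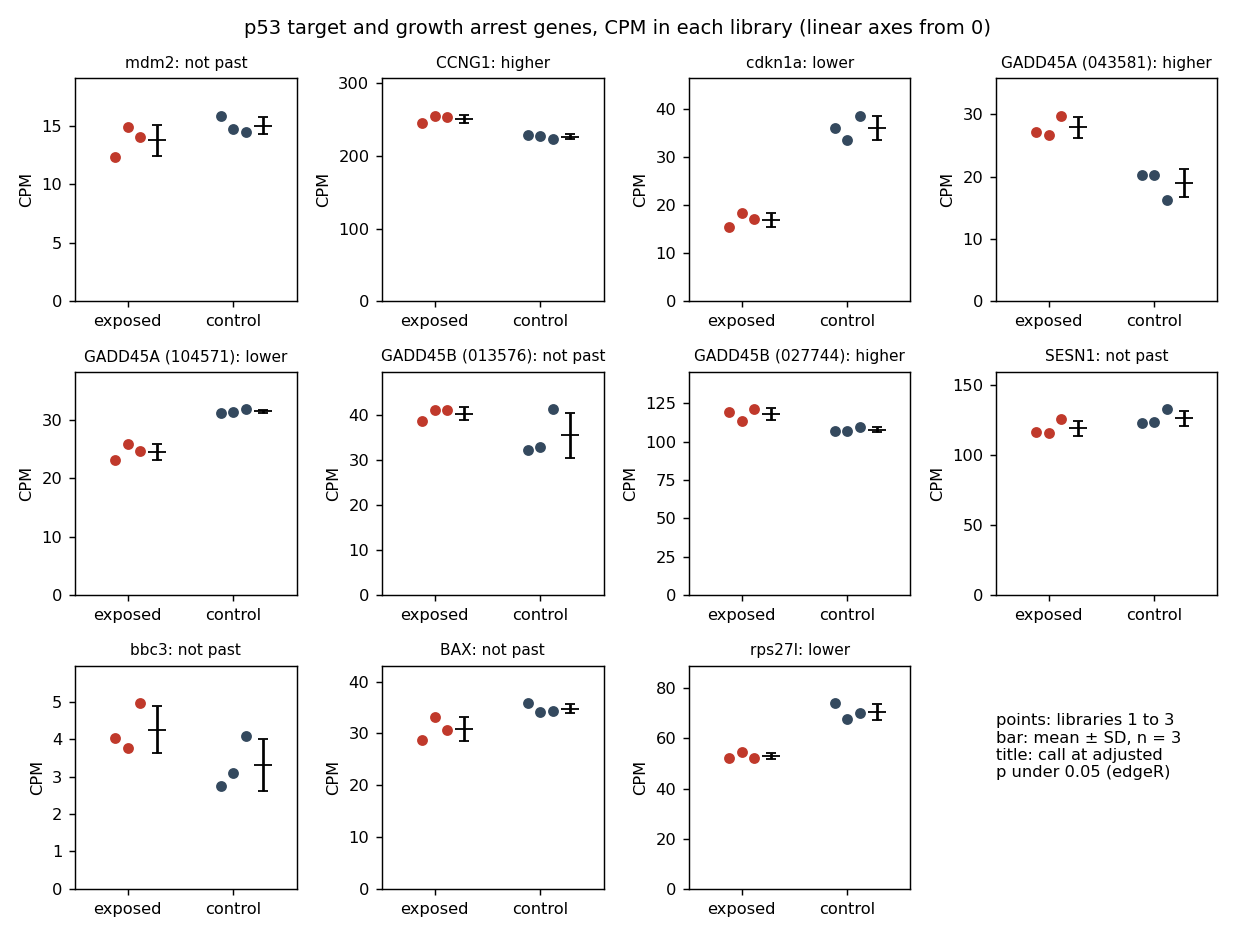
CPM of the 11 member genes in each library, with exposed libraries in red and control libraries in blue; black bars give the mean ± SD of 3 libraries, and genes that share a name carry the last 6 digits of their Ensembl identifier. The cdkn1a points of the exposed libraries lie between 15.4 and 18.3 CPM, all below the control points at 33.5 to 38.6 CPM.

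The arrest gene cdkn1a (ENSDARG00000076554) gave the largest change of the members. It encodes p21, which binds and blocks cyclin-dependent kinases. It stood at 15.4, 18.3 and 17.2 CPM in exposed libraries 1, 2 and 3, against 36.0, 33.5 and 38.6 CPM in control libraries 1, 2 and 3. The groups were far apart relative to their spread. The mean fell to 17.0 ± 1.43 CPM in exposed libraries, against 36.0 ± 2.55 CPM in control libraries (SD, n = 3 each), a log2 fold change of -1.08 ± 0.09 (SE; edgeR adjusted p = 4.90e-11). Of all genes tested, 4.16% had a more negative log2 fold change. In bulk RNA, fewer cells that express a gene and less of its RNA per cell cannot be told apart.

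The members mdm2 and CCNG1 encode proteins that act back on p53. The ubiquitin ligase gene mdm2 (ENSDARG00000033443) stood at 12.3, 14.9 and 14.0 CPM in the exposed and 15.8, 14.7 and 14.4 CPM in the control libraries. These values overlap, and the log2 fold change of -0.12 ± 0.09 did not pass (edgeR adjusted p = 0.447; between -0.18 and -0.05 with 1 library left out). CCNG1 (ENSDARG00000076667) encodes cyclin G1, which in mammals brings a phosphatase to MDM2. It was higher by a small margin, at 245, 255 and 253 CPM in the exposed and 229, 228 and 223 CPM in the control libraries, with no overlap. That is a log2 fold change of 0.15 ± 0.02 (edgeR adjusted p = 0.0018), or 1.11-fold.

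Within single libraries, the count ratio of cdkn1a to mdm2 does not depend on how libraries are scaled. It was 1.26, 1.23 and 1.22 in the exposed libraries, against 2.27, 2.28 and 2.67 in the control libraries. The ratio was lower in 3 of 3 exposed libraries, with means of 1.24 ± 0.02 and 2.41 ± 0.23 (SD, n = 3 each). A two-sided exact permutation test gave p = 0.1, the smallest that 3 against 3 libraries allow, and 0.1 after adjustment over the 4 ratios computed. All 4 were chosen after the values were seen, so each ratio restates the values of its genes and is no separate evidence.

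The GADD45A genes moved apart. GADD45 proteins bind stress kinases and cell cycle proteins and promote arrest and repair. GADD45A ENSDARG00000043581 rose, with 27.18, 26.7 and 29.8 CPM in the exposed and 20.2, 20.3 and 16.3 CPM in the control libraries (log2 fold change 0.56 ± 0.11, edgeR adjusted p = 3.32e-05). GADD45A ENSDARG00000104571 fell, with 23.1, 25.8 and 24.6 CPM in the exposed and 31.2, 31.4 and 31.7 CPM in the control libraries (log2 fold change -0.36 ± 0.05, edgeR adjusted p = 9.25e-04). Neither gene's groups overlap, and they moved in opposite directions. Their count ratio, the first over the other, averaged 1.14 ± 0.09 in exposed libraries and 0.603 ± 0.08 in control libraries (SD, n = 3 each). It was higher in 3 of 3 exposed libraries (two-sided exact permutation p = 0.1, adjusted 0.1). Given the opposite moves without overlap, that outcome was fixed in advance and adds no evidence.

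The GADD45B genes moved less. ENSDARG00000027744 stood at 119, 113 and 121 CPM in the exposed and 107, 107 and 110 CPM in the control libraries, a log2 fold change of 0.13 ± 0.03 with no overlap (edgeR adjusted p = 0.0282). That call was lost without exposed library 1 (adjusted p = 0.0959), exposed library 3 (0.137), control library 1 (0.0523) or control library 2 (0.0502). ENSDARG00000013576 stood at 38.5, 41.1 and 40.9 CPM in the exposed libraries, against 32.2, 32.9 and 41.2 CPM in the control libraries. Control library 3 lay above all exposed values, and the gene did not pass (log2 fold change 0.19 ± 0.12, edgeR adjusted p = 0.0786); without that library the log2 fold change was 0.30 and the adjusted p 0.00257.

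A further 3 genes carry the name GADD45G and belong to the list of other p53 targets. ENSDARG00000016725 fell to 5.17 ± 0.49 CPM in exposed libraries, against 12.4 ± 1.87 CPM in control libraries (log2 fold change -1.26 ± 0.15, edgeR adjusted p = 1.48e-07). ENSDARG00000019417 fell to 11.9 ± 1.00 CPM, against 18.8 ± 0.77 CPM in controls (SD, n = 3 each). The GADD45G gene ENSDARG00000113103 was near 1 CPM in both groups and did not pass (edgeR adjusted p = 0.948). Across the 7 GADD45 genes, 2 were thus higher, 3 lower and 2 not past the test. Among all genes tested 38.8% were called either way, and 49.7% of those with a mean of at least 3 CPM. The higher call of GADD45B ENSDARG00000027744 was among those lost when single libraries were left out.

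SESN1 (ENSDARG00000020693) encodes a sestrin, a protein that restrains the growth kinase mTORC1 under stress. It stood at 117, 115 and 125 CPM in the exposed and 123, 123 and 133 CPM in the control libraries, which overlap (log2 fold change -0.08 ± 0.05, edgeR adjusted p = 0.183; between -0.12 and -0.05 with 1 library left out). Its paralogs sesn2 and sesn3 did pass and were higher: sesn2 averaged 21.5 ± 0.37 CPM in exposed and 15.5 ± 1.94 CPM in control libraries, and sesn3 43.1 ± 1.27 CPM in exposed and 34.6 ± 1.03 CPM in control libraries (SD, n = 3 each; edgeR adjusted p = 7.65e-04 and 5.20e-04). Whether the paralogs differed from each other in their change was not tested.

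The 2 members that trigger apoptosis did not pass. The gene bbc3 (ENSDARG00000069282) encodes Puma, a BH3-only protein that frees the pore-forming proteins of the mitochondrial pathway. It stood at 4.03, 3.76 and 4.96 CPM in the exposed and 2.74, 3.09 and 4.09 CPM in the control libraries. These values overlap, and bbc3 had the widest spread of the members, up to 21.2% of the mean (log2 fold change 0.37 ± 0.21, edgeR adjusted p = 0.234). BAX (ENSDARG00000020623), matched to baxa, encodes such a pore-forming protein and stood at 28.7, 33.2 and 30.7 CPM in the exposed and 35.8, 34.2 and 34.3 CPM in the control libraries. The exposed values lay below all control values but by less than the test required (log2 fold change -0.17 ± 0.06, edgeR adjusted p = 0.088). Its paralog baxb averaged 7.85 CPM in exposed and 6.87 CPM in control libraries (edgeR adjusted p = 0.375).

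The gene rps27l (ENSDARG00000100513) encodes a paralog of a small ribosomal subunit protein and is induced by p53 in human cells. It stood at 52.4, 54.5 and 52.3 CPM in the exposed libraries, against 74.0, 67.7 and 69.9 CPM in the control libraries. All exposed values were below all control values, with a log2 fold change of -0.41 ± 0.04 (edgeR adjusted p = 1.36e-06). The genes of the small ribosomal subunit moved the same way: 31 of 33 tested fell and 1 rose, with a median log2 fold change of -0.22. rps27.1 and rps27.2, the nearest relatives of rps27l, had log2 fold changes of -0.22 ± 0.04 and -0.08 ± 0.03. The call of rps27.2 (edgeR adjusted p = 0.0471) was lost without exposed library 1, 2 or 3 or control library 1, at adjusted p of 0.24, 0.07, 0.0974 and 0.13.

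The estimated fall of rps27l was larger than that of most small ribosomal protein genes. Of the 33 small ribosomal protein genes, 1 (rps20, log2 fold change -0.60) fell further and 32 had a less negative change. Per 1000 counts of these 33 genes, rps27l had 1.07, 1.08 and 1.04 counts in exposed libraries and 1.20, 1.19 and 1.17 counts in control libraries. That share was lower in 3 of 3 exposed libraries, by 0.16 on the log2 scale (two-sided exact permutation p = 0.1, adjusted 0.1). The handling of reads shared by several genes is not given in the sources used here, so values of rps27l and its relatives rps27.1 and rps27.2 are uncertain where they share sequence.

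**Figure D2:**
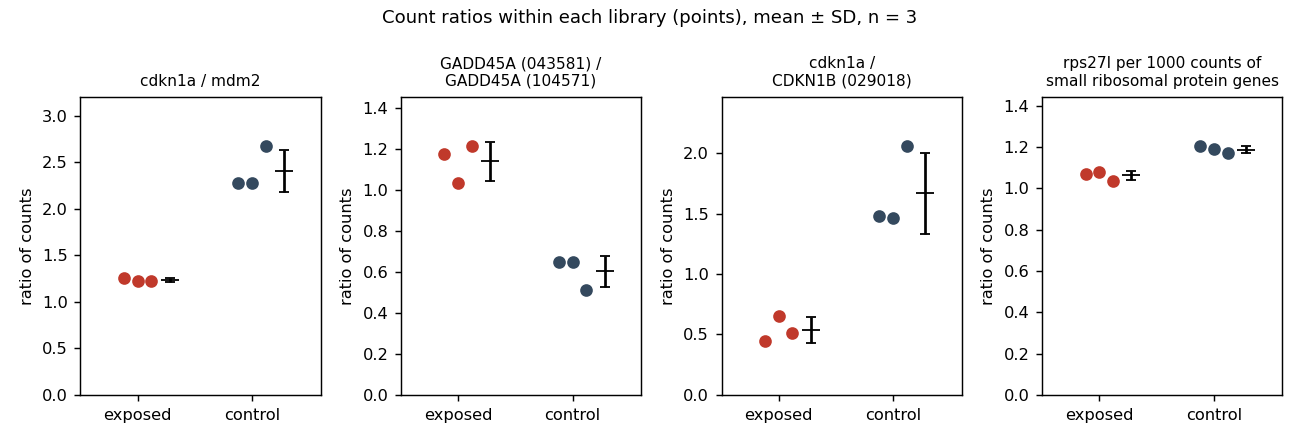
Ratios of counts within each library for 4 pairs, exposed in red and control in blue, with mean ± SD of 3 libraries. In each panel the exposed and control points do not overlap; the ratio of the GADD45A genes is higher in exposed libraries and the other 3 are lower.

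The regulators of p53 showed no shared direction either. MDM4, the partner of MDM2 in restraining p53, averaged 39.6 ± 1.12 CPM in exposed and 40.3 ± 1.77 CPM in control libraries (SD, n = 3 each; log2 fold change -0.03 ± 0.04, edgeR adjusted p = 0.802). Of 21 core and regulator genes tested, 5 were higher, 6 lower and 10 not past, with a median log2 fold change of -0.03. The family members TP63 and TP73 were among those that rose: TP63 averaged 132 ± 4.95 CPM in exposed and 81.7 ± 4.13 CPM in control libraries, and TP73 3.36 ± 0.24 CPM in exposed and 0.799 ± 0.59 CPM in control libraries. The log2 fold change of TP73 was 2.04, and 1.66 without control library 1 or 2.84 without control library 2. TP63 is the master regulator of the epidermis and is also one of the 17 epidermal markers, of which 15 were higher and 1 lower. The largest falls in this list were those of tp53inp2, an autophagy factor gene (log2 fold change -0.81 ± 0.13), and RCHY1, another ubiquitin ligase gene (-0.58 ± 0.09).

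**Figure D3:**
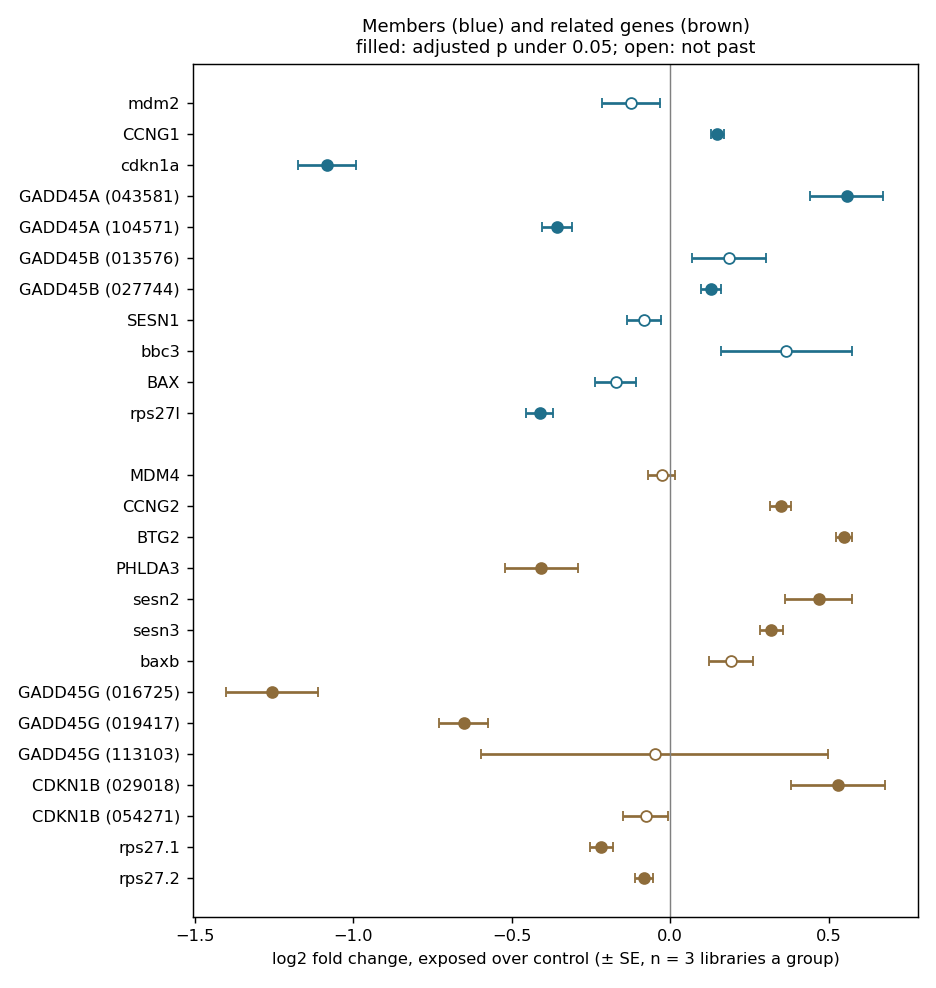
Log2 fold changes, exposed over control, with standard errors for the members (blue) and related genes (brown); filled points passed an adjusted p of 0.05 and open points did not. Among the members cdkn1a stands at -1.08 and the GADD45A pair at 0.56 and -0.36, while mdm2 and MDM4 are open points close to 0.

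Of 45 other p53 targets tested, 18 were higher, 10 lower and 17 not past, and the median log2 fold change was 0.13. Over all genes tested 20.1% were higher and 18.7% lower, and 49.7% were called either way among those of at least 3 CPM. The counts of the other lists, above and below, are to be read beside the same shares. BTG2, an antiproliferative gene, averaged 319 ± 4.63 CPM in exposed and 218 ± 6.24 CPM in control libraries (log2 fold change 0.55 ± 0.03), and CCNG2, the paralog of CCNG1, rose by 0.35 ± 0.03 on the log2 scale. DRAM1, which acts in autophagy and in macrophage defence, averaged 4.98 ± 0.44 CPM in exposed and 1.00 ± 0.69 CPM in control libraries. Its log2 fold change was 2.34 (edgeR adjusted p = 2.21e-06), and 1.92 without control library 2 or 2.98 without control library 3. TP53I3, an oxidoreductase gene, rose by 1.91 ± 0.95 on the log2 scale (edgeR adjusted p = 0.0198). It no longer passed without exposed library 2 (edgeR adjusted p = 0.0525), exposed library 3 (0.16) or control library 2 (0.0601). The log2 fold change of TP53I3 was 1.35 without control library 2 and 3.18 without control library 3. On the lower side, the largest falls were those of the GADD45G gene above and of NDRG1 ENSDARG00000010420 (log2 fold change -0.88 ± 0.15). PHLDA3, an AKT inhibitor gene, fell by 0.41 ± 0.12 on the log2 scale, but its call was lost without exposed library 2 (0.058), exposed library 3 (0.0531) or control library 1 (0.104).

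The apoptosis machinery had 15 genes higher, 4 lower and 20 not past of 39 tested (median log2 fold change 0.13). Of all genes tested 38.8% were called, and 49.7% of those with a mean of at least 3 CPM. The name HTRA2 alone brought in 13 of the 51 genes matched to this list, of which 3 had enough counts to test. casp6b.1, an executioner caspase gene, averaged 8.46 ± 0.50 CPM in exposed and 1.78 ± 0.70 CPM in control libraries, and bik, which encodes a BH3-only protein, 9.91 ± 1.99 CPM in exposed and 4.19 ± 0.33 CPM in control libraries (SD, n = 3 each). In contrast diabloa, whose product blocks caspase inhibitors, fell to 20.6 ± 1.29 CPM in exposed libraries, against 53.2 ± 4.57 CPM in control libraries (log2 fold change -1.37 ± 0.09). The fall of bada (adjusted p = 0.0419), which encodes another BH3-only protein, was lost without exposed library 2 (0.221), exposed library 3 (0.0985), control library 1 (0.176) or control library 2 (0.0574).

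Genes that act with or against p21 in the G1 phase went both ways. In the list of CDK inhibitors and G1 control, 7 of 25 tested genes were higher, 3 lower and 15 not past (median log2 fold change 0.04). The kinase gene CDK4 averaged 27.09 ± 2.31 CPM in exposed and 13.7 ± 2.43 CPM in control libraries, and the transcription factor gene e2f2 rose by 1.17 ± 0.14 on the log2 scale. CCND1, the cyclin D1 gene, fell by 0.21 ± 0.07. The inhibitor gene cdkn1cb fell by 0.71 ± 0.20 (adjusted p = 0.0147) and no longer passed without exposed library 1 (0.0969) or control library 2 (0.0536). CDKN1B, which encodes the related inhibitor p27 and was chosen after its values were seen, has 2 genes of that name: ENSDARG00000029018 was higher, with 31.9 ± 3.55 CPM in exposed and 22.0 ± 2.91 CPM in control libraries, and ENSDARG00000054271 had 46.9 ± 2.42 CPM in exposed and 49.5 ± 3.34 CPM in control libraries (adjusted p = 0.41). The count ratio of cdkn1a to the first of these averaged 0.54 ± 0.11 in exposed and 1.67 ± 0.34 in control libraries and was lower in 3 of 3 exposed libraries (two-sided exact permutation p = 0.1, adjusted 0.1).

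Genes of DNA replication and mitosis also went both ways. Of 35 tested, 7 were higher, 12 lower and 16 not past, with a median log2 fold change of -0.001. The replication licensing genes CDT1 and CDC6 were lower (log2 fold changes -0.51 ± 0.13 and -0.48 ± 0.13), while the proliferation marker gene mki67 and the mitotic kinase gene plk1 were higher (0.43 ± 0.06 and 0.46 ± 0.08). mki67 averaged 107 ± 1.74 CPM in exposed and 79.7 ± 5.77 CPM in control libraries (SD, n = 3 each). The lower level of cdkn1a thus stood beside changes of both signs in cycling genes.

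Some members also respond to stress and inflammatory signals, whose genes were measured in the same libraries. Of 21 NF-kappaB feedback and target genes tested, 15 were higher and 0 lower at the adjusted p of 0.05 (median log2 fold change 0.61), led by the cytokine genes il1b and tnfb, at 2.79 ± 0.14 and 2.78 ± 0.26 on the log2 scale. Among immediate early and dissociation stress genes, 19 of 32 were higher and 4 lower (median 0.29); klf2b and FOSB rose by 1.49 ± 0.05 and 1.30 ± 0.14, and egr4 and fosaa fell by 2.15 ± 0.09 and 1.21 ± 0.26. In the list of amino acid and endoplasmic reticulum stress genes, which shares sesn2, 5 of 21 were higher and 7 lower (median 0.01). CEBPB rose by 0.68 ± 0.05, and DDIT4, which like the sestrins restrains mTORC1, fell by 0.66 ± 0.04. The part of these signals in the values of the members was not tested.

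**Figure D4:**
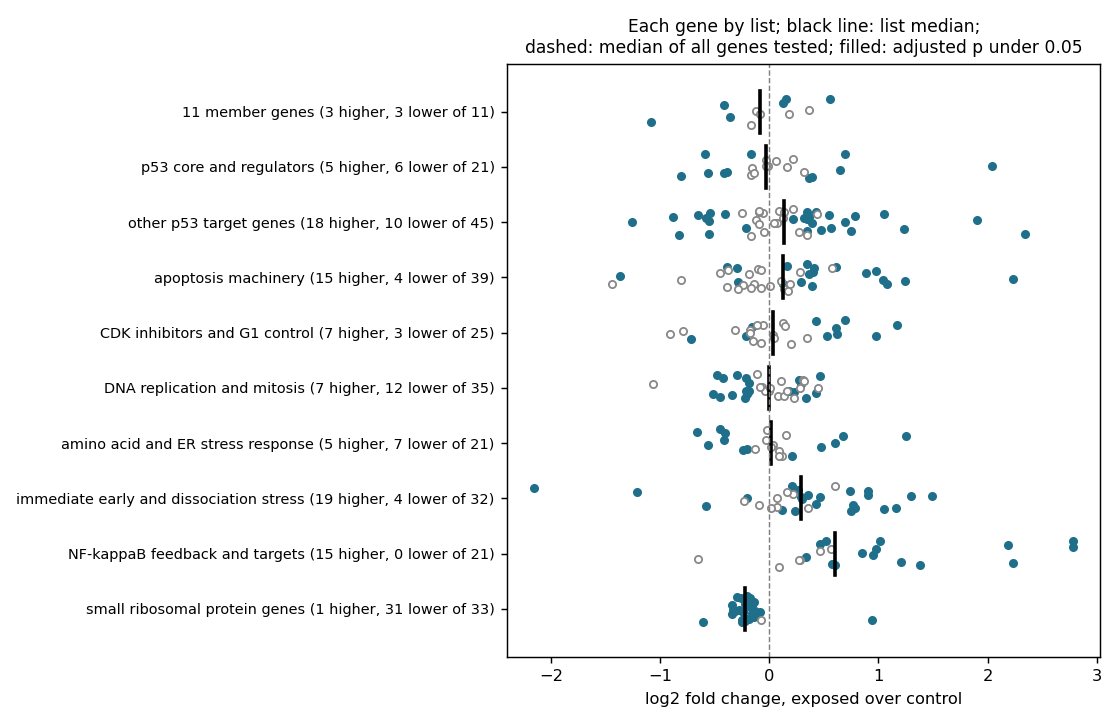
Log2 fold changes, exposed over control, of every tested gene in the member set and in 9 related lists; filled points passed an adjusted p of 0.05, black lines mark list medians and the dashed line the median of all genes tested. The members scatter to both sides with a median of -0.08, whereas the NF-kappaB list lies mostly above 0 (median 0.61) and the small ribosomal protein genes mostly below (median -0.22).

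Marker genes of other tissues differed between the same libraries. Liver markers summed to between 3037 and 3086 CPM in exposed and between 9938 and 10321 CPM in control libraries, with 16 of 17 lower. Leukocyte markers summed to between 449 and 453 CPM in exposed and between 290 and 296 CPM in control libraries, with 13 of 16 higher. Endothelial markers were lower in 10 of 12 cases and photoreceptor markers in 15 of 17, and epidermal markers were higher in 15 of 17. The shares over all genes tested were 20.1% higher and 18.7% lower. Of the other lists, chondrocyte markers were lower in 12 of 15 cases, neuronal markers lower in 7 and higher in 1 of 15, skeletal muscle markers higher in 13 and lower in 5 of 19, and erythroid markers higher in 6 of 8. No matched marker of the first 5 lists was at 0 in every library. Listed markers without a match by name, such as mpx (leukocyte), pecam1 (endothelium) and opn1sw1 (photoreceptor), were not assessed. The part of these shifts in the levels of cdkn1a and of the other members was not tested.

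The genes whose profile over the 6 libraries was most like that of cdkn1a, by the Euclidean distance between centred log2 CPM among 12318 genes with a mean of at least 5 CPM, were nme2a (distance 0.12), serpinf2b (0.12) and the unnamed gene ENSDARG00000100185 (0.15). For mdm2 they were mdp1 (0.07), SNRPD2 (0.08) and UPRT (0.08). With 2 groups of 3 libraries, such a distance is set mainly by the size of the difference between the groups.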

How the data were processed

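The authors deposited raw, unnormalized read counts per Ensembl gene. The build GRCz11 and the tools STAR 2.7.10a, FastQC, R 4.4.2 and featureCounts 2.0.6 are named, per the submitters' processing notes; the treatment of strand and of reads that fit several genes is not given in the sources used here. In each library 76.1% to 81.7% of nonzero counts were even; read pairs may thus have been counted by mate, and the counts may overstate the fragments. Symbols came from a table that names 29201 of the 32520 genes; 6 listed members matched by symbol and 3 without their paralog letter. Genes were filtered with filterByExpr (minimum count 10, minimum total count 15), scaled by TMM and tested with edgeR 4.0.16 (limma 3.58.1, R 4.3.3) by a robust quasi-likelihood F-test, exposed over control, with Benjamini-Hochberg adjustment over 21194 genes and a threshold of 0.05. CPM use the TMM factors; the SE belongs to the difference between group means of log2 CPM (prior count 2). The edgeR fit was tested on simulated counts with known changes. Named genes were all members, a fixed set of their relatives, and CDKN1B, which was chosen after its values were seen. The 2 largest called changes in each direction of each related list and the 3 genes most like cdkn1a and mdm2 were named as well. Not all list extremes are described. The members and lists were chosen with earlier results of these data known, so lists are given as counts and medians only. Alternatives were DESeq2 1.42.0, other scalings, no filter, halved counts, a replicate block and leaving out each library. Exact permutation tests over 3 against 3 libraries were used for count ratios. The values of 1 gene are not reported here; it remains in the fit and in the counts.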

Additional observations from a re-analysis of the deposited data

How the results depend on the processing

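The counts of members called moved little: between 2 and 4 were higher and 3 lower under every alternative run, and between 6712 and 8408 of all genes were called. Leaving out 1 library at a time gave 2 to 4 members higher, 3 lower, and 6712 to 8063 genes called. cdkn1a, rps27l, CCNG1 and both GADD45A genes kept their direction and their call under all 12 alternatives; cdkn1a ranged between -1.14 and -1.02 on the log2 scale. mdm2, bbc3, BAX and SESN1 passed under none of the 12, at adjusted p of at least 0.0605. Without a filter on low counts GADD45B ENSDARG00000013576 passed (adjusted p = 0.0438) and rps27.2 did not (0.0583). GADD45G ENSDARG00000113103 changed sign with the replicate block (0.13) and without exposed library 3 (0.06) or control library 3 (0.63), and ranged between -0.39 and 0.63 over the libraries left out. MDM4 changed sign without control library 2 (0.0066) and ranged between -0.060 and 0.0066. Neither gene was called, and the cause was not tested. The labels do not say whether same-numbered libraries were handled together. Their deviations from the group means correlated between -0.01 and 0.01 across genes, and those of differently numbered libraries between -0.02 and 0.02. The values thus showed no pairing, and the main fit assumed none. With the replicate block 8164 genes, 3 members higher and 3 lower were called, and rps27.2 lost its call (0.0632). Whether mates were counted separately and how shared reads were counted is not stated, which may limit the values of paralogs.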
